A study of Mus musculus with 16 samples.

Results

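The genes followed were Klrk1, Klrd1, Klrc1, Klrc2, Tyrobp and Fcer1g. They were taken by name, as the NKG2 receptor genes and their signalling adaptors, from the lymph node gene table, and all 6 of 6 have a row among its 9428 genes. Klrk1 encodes NKG2D, an activating receptor that binds stress-induced relatives of MHC class I. Klrd1 encodes CD94, the partner chain without which neither NKG2A (Klrc1, inhibitory) nor NKG2C (Klrc2, activating) reaches the surface, and both pairs bind Qa-1, the product of H2-T23. Tyrobp encodes DAP12 and Fcer1g the Fc receptor gamma chain, which are adaptors that carry activating signals for receptors with no signalling tail of their own. NKG2D uses DAP10, encoded by Hcst, and in the mouse also DAP12. On memory CD8 T cells these receptors are known as modulators of the T cell receptor: NKG2D as a costimulator and CD94/NKG2A as a brake.

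The cells were sorted CD8+CD44+ T cells, a gate for antigen-experienced cells, from the tumor-draining lymph node of C57BL/6 mice aged 16 weeks. All mice had melanoma-associated vitiligo, in which T cells raised against a tumor also destroy the pigment cells of the skin, and were studied 45 days after tumor surgery. The lymph node RNA was 1 library sequenced on 4 lanes, and the sources used here do not give the number of mice behind it. T cell receptors of the same cells and of CD8+CD44+ T cells from matched skin lesions were sequenced as well, while skin RNA was not analysed here. No untreated or disease-free mice were among the samples, so every comparison below is between cells of 1 library, without a test, and each interval is an exact 95% interval that covers counting error only.

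The table held 3266 cells with 14556622 UMIs (unique molecular identifiers, each standing for 1 captured transcript), at a median of 4423 UMIs per cell and a range of 461 to 12576. Of the genes of the sorted cells, Cd3e was seen in 95.3%, Cd8b1 in 96.7%, Cd8a in 83.0%, Trac in 57.3% and Cd44 in 26.0% of cells without Fcer1g. The table holds rows for few defining markers of other cell types. It has 3 of 7 chosen NK cell markers (Gzma, Eomes and Klra9), which CD8 T cells can express too, and 1 of 7 for gamma-delta T cells (Trgv2, a T cell receptor gamma segment). It has 1 of 6 for myeloid cells (Lyz2), 1 of 5 for dendritic cells (Itgax), 1 of 3 for CD4 T cells (Cd40lg), and none of 4 each for mast cells or basophils and for iNKT or MAIT cells. The B cell genes Cd79b, Ighm and Ighd together had 204 CPM (UMIs of a gene per 1000000 UMIs of the cells summed), and 212, 212 and 203 CPM in the 3 groups of cells compared below. Of the barcodes, 12 in the gene table also occurred in the skin receptor table.

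Gene positions are on build mm10, from GENCODE M21. Klrd1 (ENSMUSG00000030165.16, chr6:129591782-129598775, plus strand) is followed by Klrk1 (ENSMUSG00000030149.15, chr6:129610323-129623864), Klrc2 (ENSMUSG00000052736.15, chr6:129647496-129660689) and Klrc1 (ENSMUSG00000030167.15, chr6:129666015-129678973), all 3 on the minus strand of the NK gene complex. Tyrobp (ENSMUSG00000030579.10, chr7:30413760-30417585, plus strand) lies beside Hcst (chr7:30417712-30419854, minus strand), and Fcer1g (ENSMUSG00000058715.11) is at chr1:171229572-171234365 on the minus strand. Klrc1 and Klrc2 are close copies: 38.6% of the 50-base stretches of Klrc1 coding transcripts and 29.4% of those of Klrc2 also occur in another gene, chiefly in each other and in Klrc3. How reads common to such copies were counted is not stated, so the split of counts between Klrc1 and Klrc2 is uncertain. No such stretch was found for Klrk1, Klrd1, Tyrobp or Fcer1g, and 12.3% were shared for Klra7, the Ly49 gene that defines a group below, chiefly with Klra13-ps.

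Promoter sequences are shown for the genes whose levels set the Itgae-bearing or the Klra7-bearing cells apart in the results below. RefSeq promoters (GRCm38.p6, 300 bases, from 250 before to 50 after the start) were at hand for 4 of the 6 genes and are printed 5′ to 3′ on the minus strand, the genes' own: Klrk1 at chr6:129623815-129624114, Klrc1 at chr6:129678924-129679223, Klrc2 at chr6:129660547-129660846 (the first of 2 entries) and Fcer1g at chr1:171234300-171234599. Capitals mark the core letters of motifs searched on both strands, TGTGGT for RUNX factors and TGANTCA for AP-1; GGTGTG for T-box factors was searched too, and no marked motif overlaps another.
Klrk1: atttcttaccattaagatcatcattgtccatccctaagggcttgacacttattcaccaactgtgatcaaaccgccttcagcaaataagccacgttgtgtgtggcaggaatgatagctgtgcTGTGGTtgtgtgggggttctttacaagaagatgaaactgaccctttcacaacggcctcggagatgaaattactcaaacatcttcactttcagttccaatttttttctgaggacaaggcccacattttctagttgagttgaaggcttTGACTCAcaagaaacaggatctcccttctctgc
Klrc1: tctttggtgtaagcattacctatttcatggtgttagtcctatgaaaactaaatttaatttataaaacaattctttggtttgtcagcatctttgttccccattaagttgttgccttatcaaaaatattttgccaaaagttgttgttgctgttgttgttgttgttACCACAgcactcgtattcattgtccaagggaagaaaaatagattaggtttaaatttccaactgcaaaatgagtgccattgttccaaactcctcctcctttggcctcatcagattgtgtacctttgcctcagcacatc
Klrc2: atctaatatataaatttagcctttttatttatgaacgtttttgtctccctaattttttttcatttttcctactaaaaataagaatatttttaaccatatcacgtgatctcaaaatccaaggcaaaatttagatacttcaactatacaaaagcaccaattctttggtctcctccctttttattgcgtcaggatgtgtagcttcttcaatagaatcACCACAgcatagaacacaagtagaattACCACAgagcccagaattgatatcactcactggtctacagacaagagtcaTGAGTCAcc
Fcer1g: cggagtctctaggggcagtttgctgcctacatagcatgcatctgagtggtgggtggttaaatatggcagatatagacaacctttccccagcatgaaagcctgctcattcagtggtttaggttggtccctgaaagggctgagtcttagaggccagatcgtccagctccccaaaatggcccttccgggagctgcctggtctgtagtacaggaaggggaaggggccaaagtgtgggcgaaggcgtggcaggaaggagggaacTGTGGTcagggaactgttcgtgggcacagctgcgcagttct
The RUNX letters occurred at 1 place in Klrk1, Klrc1 and Fcer1g and at 2 places in Klrc2, and 16.8% of all 32851 promoters in the table hold them. The AP-1 letters occurred at 1 place each in Klrk1 and Klrc2, and 7.81% of promoters hold them. The T-box letters, held by 19.0% of promoters, were in none of the 4 windows. The Klrc1 and Klrc2 promoters were identical at 51.1% of aligned bases, and the other pairs of these promoters at 46.5 to 55.3%. These matches are letters only and show no binding.

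Across all cells, CD94 transcripts were common and those of its NKG2 partners and of the adaptors were sparse. Klrd1 was detected in 1845 of 3266 cells (56.5%, 54.8 to 58.2) at 233 CPM (225 to 241). Klrk1 was detected in 327 cells (10.01%, 9.0 to 11.1) at 37.1 CPM (34.0 to 40.4). Klrc1 was detected in 268 cells (8.21%, 7.29 to 9.20) at 26.2 CPM (23.7 to 29.0). The inhibitory partner of CD94 was thus seen in fewer cells than CD94 itself, although UMI counts of different genes are not measured on 1 length scale and were not compared as levels. Klrc2 was detected in 56 cells (1.71%, 1.30 to 2.22) at 4.74 CPM. Tyrobp was likewise detected in 56 cells (1.71%, 1.30 to 2.22) at 4.6 CPM. Fcer1g was detected in 46 cells (1.41%, 1.03 to 1.87) at 4.53 CPM. For these 3 genes the whole library holds 69, 67 and 66 UMIs, so any statement on them rests on few molecules. Most positive cells held 1 UMI, from 52.1% of the Klrd1 cells to 85.7% of the Tyrobp cells, and the highest count in any cell was 10, for Klrd1.

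Shares of cells depend on depth. After each cell was thinned to 1500 UMIs, which left 3090 cells, Klrd1 was detected in 27.1%, Klrk1 in 4.6%, Klrc1 in 3.40%, Klrc2 in 0.615%, Tyrobp in 0.485% and Fcer1g in 0.356%. Cells with Klrd1 were deeper than cells without it, at medians of 4739 and 3836 UMIs, whereas Klrk1 cells (4368) and the rest (4429) were alike in depth. The DAP10 gene Hcst was detected in 2952 cells (90.4%, 89.3 to 91.4). At least 1 of the 6 genes was detected in 2003 cells (61.3%), but leaving out Klrd1 brought this to 564 cells (17.3%). At least 4 of them were detected together in 21 cells.

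Cells were then divided by 2 genes that mark different kinds of memory CD8 T cell. Itgae encodes the alpha chain of CD103, an integrin of tissue-resident cells, and Klra7 encodes the inhibitory receptor Ly49G. A total of 372 cells had an Itgae UMI and no Klra7 UMI, 250 had a Klra7 UMI and no Itgae UMI, 12 had both and 2632 had neither. The median depth was 3640 UMIs in Itgae cells, 4811.5 in Klra7 cells and 4439.5 in cells with neither. In cells with both genes Klrk1 had 9 UMIs, Klrd1 27, Klrc1 5, Klrc2 1, Tyrobp 0 and Fcer1g 2, too few to place them. A gene was called when its CPM differed by 2-fold or more, with a prior of 1 CPM added on both sides, among genes with at least 50 UMIs over both sides.

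Itgae cells carried more of the NKG2D and NKG2A transcripts. Klrk1 was at 110 CPM (94.0 to 128) in Itgae cells and 25.4 CPM (22.6 to 28.4) in cells with neither, and the intervals do not overlap. The log2 ratio was 2.12 (1.83 to 2.39), or 4.33-fold, which placed Klrk1 48th from the top of 8913 genes. Klrk1 was detected in 23.9% (19.7 to 28.6) of Itgae cells, against 7.48% (6.51 to 8.56) of cells with neither, and after thinning in 13.0%, against 3.44%. Klrc1 was at 56.7 CPM (45.3 to 70.0) in Itgae cells and 20.9 CPM (18.4 to 23.7) in cells with neither, a log2 ratio of 1.44 (1.07 to 1.80). After thinning, Klrc1 was detected in 5.74% (3.49 to 8.82) of Itgae cells, against 3.08% (2.44 to 3.83) of cells with neither, with overlapping intervals; the log2 ratio was then 1.03, and with the prior of 1 CPM the call was lost. Klrd1, the chain that NKG2A needs, did not follow its partner: it was at 240 CPM (216 to 266) in Itgae cells and 224 CPM (216 to 233) in cells with neither, a log2 ratio of 0.10 (-0.06 to 0.26). This value changes sign to -0.12 when counts are scaled by the median of ratios, a scaling that moved all genes by 0.22. Tyrobp, at 7.25 CPM in Itgae cells and 4.20 CPM in cells with neither, had an interval from -0.31 to 1.75 and no separation at this depth. Klrc2 (7 UMIs in Itgae cells, 37 in cells with neither) and Fcer1g (8 UMIs in Itgae cells, 27 in cells with neither) were below the 50-UMI minimum, and both intervals span 0.

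Of the 4 members that reached the minimum, 2 were called higher in Itgae cells and 0 lower. Over all 8913 genes, 3.23% were called higher and 0.539% lower. The median log2 ratio of the 6 members was 0.99, without the prior and with Klrc2 and Fcer1g kept despite the minimum. The median over all genes, 0.21, was taken with the prior of 1 CPM, so these medians are not on 1 measure. The gamma-delta marker Trgv2 moved with this group: it was at 53.4 CPM in Itgae cells, against 2.83 CPM in cells with neither. Leaving out the 80 cells with a Trgv2 UMI, the log2 ratio was 1.70 for Klrk1 and 0.87 for Klrc1, which ends the Klrc1 call. The CD4 T cell marker Cd40lg was at 35.6 CPM in Itgae cells, against 4.97 CPM in cells with neither. The 3 NK cell markers together were at 250 CPM, against 103 CPM, but did not move as 1. Eomes, among them, was lower in Itgae cells, at 42.8 CPM against 88.1 CPM. The part of these markers in the result was not tested.

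**Figure D1:**
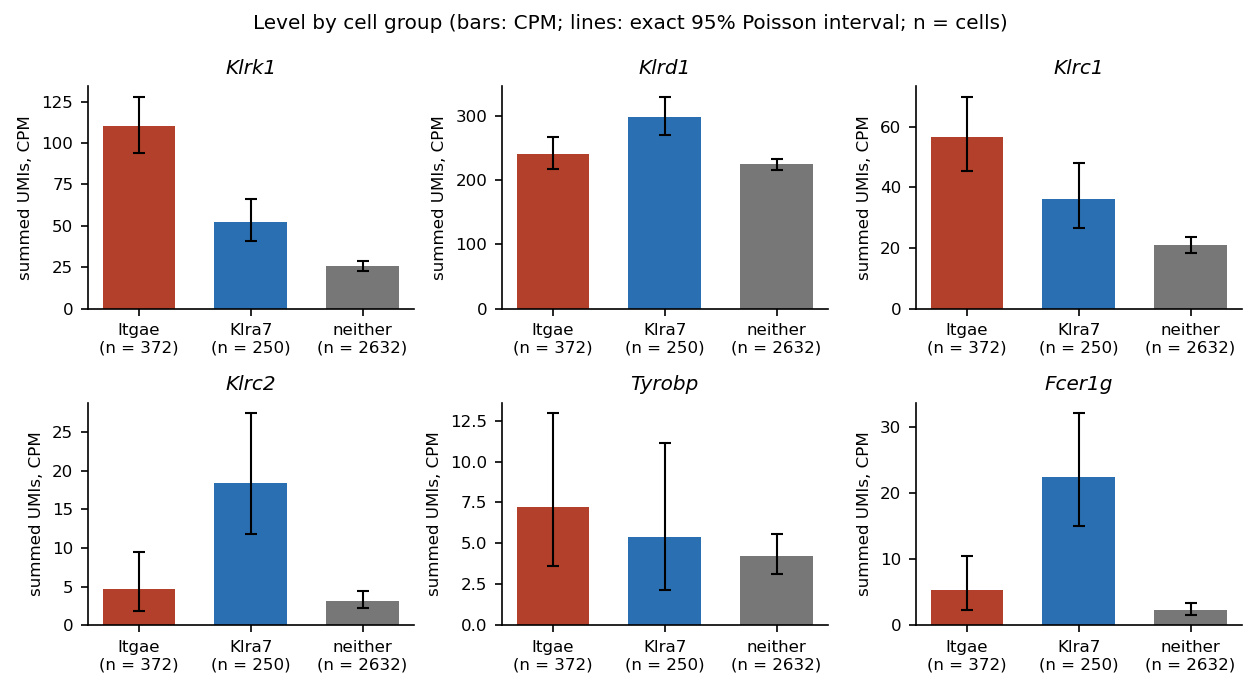
Level of each gene (CPM of summed UMIs) in Itgae cells, Klra7 cells and cells with neither, with exact 95% Poisson intervals; each panel has its own vertical axis from 0. Klrk1 and Klrc1 stand highest in Itgae cells, whereas Klrc2 and Fcer1g stand highest in Klra7 cells.

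Klra7 cells showed another pattern, led by the gamma chain and NKG2C. Fcer1g was at 22.3 CPM (15 to 32.1) in Klra7 cells and 2.32 CPM (1.53 to 3.37) in cells with neither, from 29 UMIs in 18 Klra7 cells and 27 UMIs in 20 cells with neither. The log2 ratio was 3.27 (2.46 to 4.08), or 9.65-fold. Klrc2 was at 18.5 CPM (11.8 to 27.5) in Klra7 cells and 3.17 CPM (2.23 to 4.37) in cells with neither, a log2 ratio of 2.54 (1.74 to 3.32). After thinning, Fcer1g was detected in 1.63% (0.447 to 4.13) of Klra7 cells, against 0.240% (0.0881 to 0.521) of cells with neither, with overlapping intervals. For Klrc2 these shares were 2.86% (1.16 to 5.80) and 0.440% (0.220 to 0.785), which lie apart. The log2 ratios were then 3.13 for Fcer1g and 2.57 for Klrc2. With a prior of 10 CPM they were 1.39 and 1.11. Klrk1 was at 52.4 CPM in Klra7 cells and 25.4 CPM in cells with neither. Its log2 ratio was 1.05 (0.64 to 1.43), just past the threshold. It was 0.92 without the Klra7 cell that held the most Klrk1 UMIs and 0.82 with a prior of 10 CPM, and each ends the call. After thinning, Klrk1 was detected in 5.31% (2.86 to 8.90) of Klra7 cells, against 3.44% (2.76 to 4.23) of cells with neither, with overlapping intervals.

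The CD94 and NKG2A genes differed less. Klrd1 was at 298 CPM (269 to 329) in Klra7 cells and 224 CPM (216 to 233) in cells with neither, a log2 ratio of 0.41 (0.25 to 0.57). Klrc1 was at 36.2 CPM (26.6 to 48.2) in Klra7 cells and 20.9 CPM (18.4 to 23.7) in cells with neither, a log2 ratio of 0.79 (0.31 to 1.25), and thinning brought it to 0.20. Tyrobp was at 5.39 CPM in Klra7 cells and 4.20 CPM in cells with neither, with an interval from -1.03 to 1.51. Fcer1g and Klrc2 reached the 50-UMI minimum only with their UMIs in Klra7 cells, where they are high. Their calls, with that of Klrk1, make 3 higher and 0 lower and are a description only: over 8812 genes 0.318% were called higher and 2% lower, and nothing is read from setting these side by side. Trgv2 was at 15.4 CPM in Klra7 cells, and without the cells that had it the log2 ratio was 2.98 for Fcer1g and 2.24 for Klrc2. The myeloid marker Lyz2 had 0 UMIs in Klra7 cells.

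Set directly against each other, the Itgae and Klra7 cells differed in opposite directions for different members. Klrk1 was at 110 CPM in Itgae cells and 52.4 CPM in Klra7 cells, a log2 ratio of 1.07 (0.66 to 1.5). Klrc1 was at 56.7 CPM in Itgae cells and 36.2 CPM in Klra7 cells, a log2 ratio of 0.65 (0.12 to 1.19). Klrd1 was lower in Itgae cells, at 240 CPM against 298 CPM in Klra7 cells, with a log2 ratio of -0.31 (-0.52 to -0.10). Fcer1g had 8 UMIs in Itgae cells and 29 in Klra7 cells, a log2 ratio of -2.08 (-3.42 to -0.92). Klrc2 had 7 UMIs in Itgae cells and 24 in Klra7 cells, a log2 ratio of -2.0 (-3.46 to -0.75). Both were under the 50-UMI minimum, yet their intervals lie below 0. Of the 3 members that reached it, 1, Klrk1, was called higher in Itgae cells and 0 lower, beside 4.46% and 0.397% of 5536 genes. The Klrk1 call was lost under 9 of 11 other settings, with log2 ratios down to 0.62 without Trgv2 cells, and without cluster 6, described next, the log2 ratio was -0.88.

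**Figure D2:**
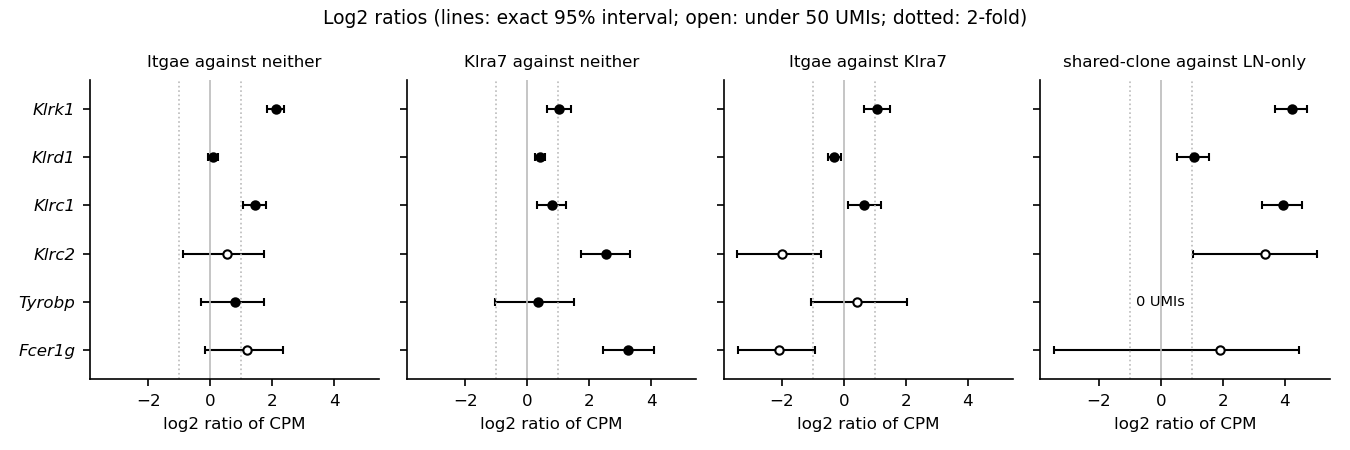
Log2 ratio of CPM for the 6 genes in 4 comparisons, with exact 95% intervals; open points rest on fewer than 50 UMIs over both sides and dotted lines mark 2-fold. Fcer1g and Klrc2 lie above 2-fold in Klra7 cells against neither and below 0 in Itgae against Klra7 cells, while Klrk1 and Klrc1 lie above 2-fold in Itgae cells and in cells of clones shared with skin.

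The Itgae cells were not uniform. Cells were clustered without the 6 genes, Itgae, Klra7 and receptor segments, which gave 7 clusters that are described, not tested. Of the 372 Itgae cells, 110 (29.6%) fell in cluster 6 and 134 (36.0%) in cluster 5. Cluster 6 (156 cells) was led by Lgals3, Cx3cr1, Csf1, Anxa1, Itga1 and the granzymes Gzma and Gzmb. Cluster 5 (408 cells) was led by Wnt10a, Nrn1, Izumo1r, Cd200 and the checkpoint genes Lag3, Ctla4 and Pdcd1. Klrk1 was detected in 59.6% (51.5 to 67.4) of cluster 6 and 5.88% (3.80 to 8.63) of cluster 5, although cluster 6 was the shallower, at a median of 2549 UMIs against 3094.5. Klrc1 was detected in 35.3% (27.8 to 43.3) of cluster 6 and 1.96% (0.85 to 3.83) of cluster 5.

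Split by cluster, the NKG2D and NKG2A transcripts of Itgae cells sat in cluster 6. Klrk1 was at 343 CPM (287 to 406) in Itgae cells of cluster 6 and 28.5 CPM (19.5 to 40.2) in the 262 Itgae cells outside it, with 60.9% and 8.4% of cells positive. Outside cluster 6, cells with neither gene had 22.3 CPM (19.7 to 25.2), so the Itgae cells there did not stand apart. Klrc1 was at 183 CPM (143 to 230) in Itgae cells of cluster 6 and 12.5 CPM (6.81 to 20.9) in Itgae cells outside it, against 20.1 CPM (17.6 to 22.8) in cells with neither outside it. Without cluster 6 the log2 ratio of Itgae cells to cells with neither was 0.35 for Klrk1 and -0.69 for Klrc1. The 44 cells of cluster 6 with neither Itgae nor Klra7 had 272 CPM (194 to 372) of Klrk1 and 90.8 CPM (48.4 to 155) of Klrc1. High levels in cluster 6 thus did not require an Itgae UMI, though a cell with none detected may still express the gene. Klrd1 was at 358 CPM (301 to 422) in Itgae cells of cluster 6 and 199 CPM (174 to 227) in Itgae cells outside it. Among Itgae cells split this way, Klrd1 was thus higher where Klrc1 was.

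**Figure D3:**
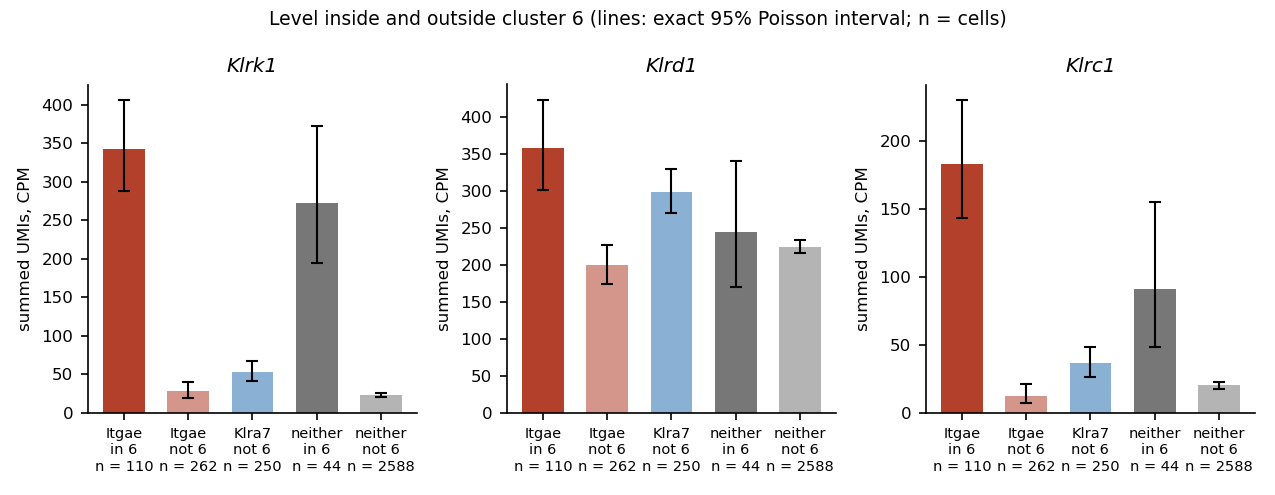
Level (CPM, exact 95% Poisson intervals) of Klrk1, Klrd1 and Klrc1 in Itgae cells, Klra7 cells and cells with neither, inside and outside cluster 6; no Klra7-only cell lay in cluster 6. Klrk1 and Klrc1 are high inside cluster 6 with or without Itgae and low outside it.

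Across the 7 clusters each gene had its own order. Klrd1 ran from 31.1% of cells in cluster 5 to 73.8% in cluster 0 (564 cells), which was led by Klre1, Klra6, Stmn1 and Klra7; of 21 pairs of clusters, the intervals of 8 overlapped. Klrk1 was lowest in cluster 4 (675 cells, led by Igfbp4), at 2.37%, reached 17.0% in cluster 0 and was highest in cluster 6. Klrc1 was at 2.37% in cluster 4, 14% in cluster 0, 11.9% in cluster 3 and 9.73% in cluster 2, whose leading genes were interferon-stimulated (Rsad2, Ifit1 and Isg15). Of the Klrk1 cells, 28.4% lay in cluster 6 and 29.4% in cluster 0. Of the Klrc1 cells, 20.5% lay in cluster 6, 29.5% in cluster 0 and 23.9% in cluster 3.

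The sparse genes gave less. Fcer1g was detected in 4.08% (2.60 to 6.06) of cluster 0 and 0.444% (0.0917 to 1.29) of cluster 4, and cluster 0 held 23 of its 46 cells. Within cluster 0, which gathers the Ly49 genes without use of Klra7, Fcer1g was at 39.0 CPM in Klra7 cells. Klrc2 ran from 0.245% in cluster 5 to 3.35% in cluster 3. Tyrobp ran from 1.04% in cluster 4 to 3.85% in cluster 6, and the intervals of all 21 pairs overlapped: no difference between clusters was detectable at this depth, and the part of free RNA was not tested.

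**Figure D4:**
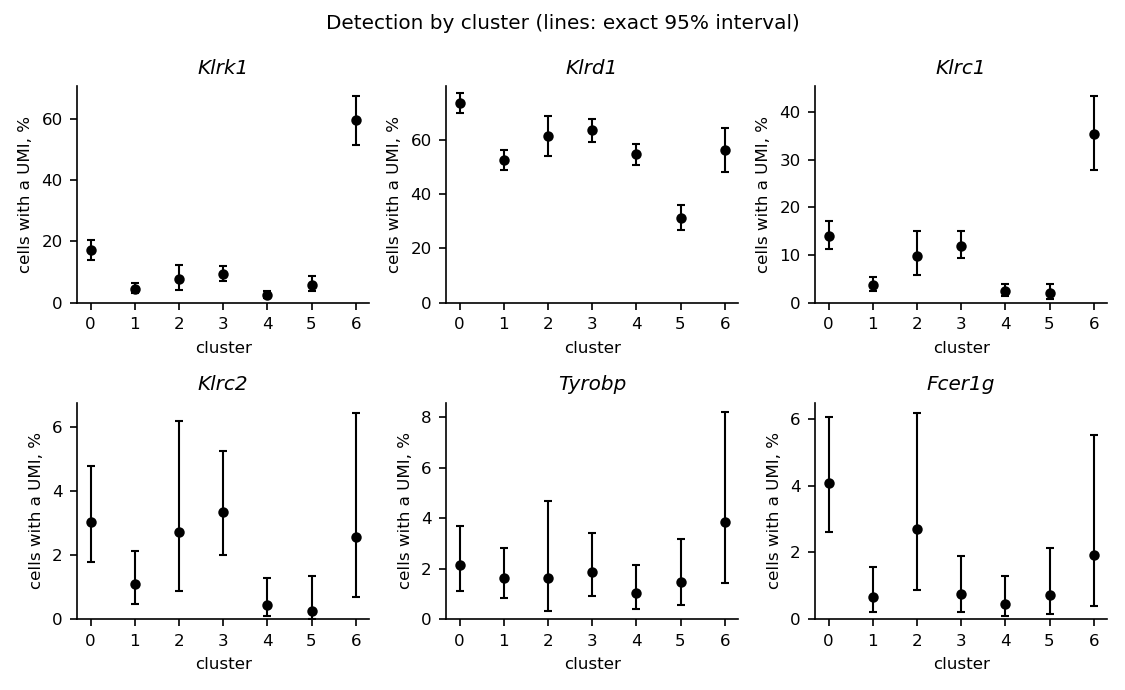
Share of cells with a UMI of each gene by cluster, with exact 95% intervals and a separate vertical axis for each gene. Klrk1 and Klrc1 peak in cluster 6, Klrd1 and Fcer1g in cluster 0, and the Tyrobp intervals all overlap.

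Detection of the members in the same cells was described pair by pair. All 15 pairs were found together in more cells than the product of their shares gives, and in 11 the share among cells with the first gene had an interval above that among cells without it. The count of 11 depends on which gene of a pair is taken first. After thinning to equal depth, 12 of the 15 were above the product, and the pairs of Tyrobp with Klrd1, Klrc2 and Fcer1g were not. Some of the 12 rest on 1 cell: Klrc1 with Tyrobp, where the product gives 0.51, and Klrc2 with Fcer1g, where it gives 0.07. Pairs of other genes were not counted, so these counts do not set the members apart from other genes. Klrc1 was detected in 111 of 327 Klrk1 cells (33.9%, 28.8 to 39.4), against 157 of 2939 cells without Klrk1 (5.34%, 4.56 to 6.22). This NKG2D and NKG2A pair had the highest phi coefficient of the 15, 0.31 over 3266 cells (a correlation of detection, given as a description). Outside cluster 6, Klrc1 was seen in 31.6% of Klrk1 cells, against 4.83% of cells without Klrk1, and within it in 39.8%, against 28.6%, with overlapping intervals. Among Klrk1 cells the share with Klrc1 was 38.2% in Itgae cells, 32.4% in Klra7 cells and 32.0% in cells with neither, again with overlapping intervals. With all cells at 1500 UMIs Klrc1 was still seen in 19.7% of Klrk1 cells, against 2.61% of the others. Barcodes with 2 or more beta chains made up 14.7% of Klrk1 cells, against 9.08% of the others. For Fcer1g these shares were 17.4% and 9.53%, and only for Tyrobp was the order reversed, at 3.57% and 9.75%. Without such barcodes Klrc1 was seen in 31.9% of Klrk1 cells, against 5.01%, and Fcer1g in 3.94%, against 1.01%. The part of merged cells was not tested.

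Receptor chains that work together were only partly found together. Klrd1 was detected in 189 of 268 Klrc1 cells (70.5%, 64.7 to 75.9), against 55.2% of cells without Klrc1. It was detected in 47 of 56 Klrc2 cells (83.9%, 71.7 to 92.4), against 56.0% of cells without Klrc2. A Klrc1 cell without a Klrd1 UMI is thus common at this depth and does not show that the partner is missing. Klrc2 was detected in 22 of 268 Klrc1 cells (8.21%, 5.22 to 12.2), against 1.13% of cells without Klrc1, a pair whose shared stretches could place reads of 1 gene on the other. Klrc2 was also detected in 27 of 327 Klrk1 cells (8.26%, 5.51 to 11.8), against 0.987% of cells without Klrk1, and these genes share no such stretch.

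The adaptor genes were set beside NKG2C next. Fcer1g was detected in 8 of 56 Klrc2 cells (14.3%, 6.38 to 26.2), against 1.18% of cells without Klrc2. Tyrobp, the known adaptor of NKG2C, was detected in 2 of 56 Klrc2 cells (3.57%, 0.435 to 12.3), against 1.68% of cells without Klrc2, a difference not detectable at this depth. The intervals of Fcer1g and Tyrobp in Klrc2 cells overlap, and after thinning 1 and 0 of 19 Klrc2 cells had them. The 2 adaptors were seen together in 2 cells. Tyrobp was detected in 12 of 327 Klrk1 cells (3.67%, 1.91 to 6.32), against 1.5% (1.09 to 2.0) of cells without Klrk1, and these intervals overlap. Taken the other way, Klrk1 was detected in 21.4% (11.6 to 34.4) of Tyrobp cells, against 9.81% (8.81 to 10.9) of cells without Tyrobp, and these lie apart.

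**Figure D5:**
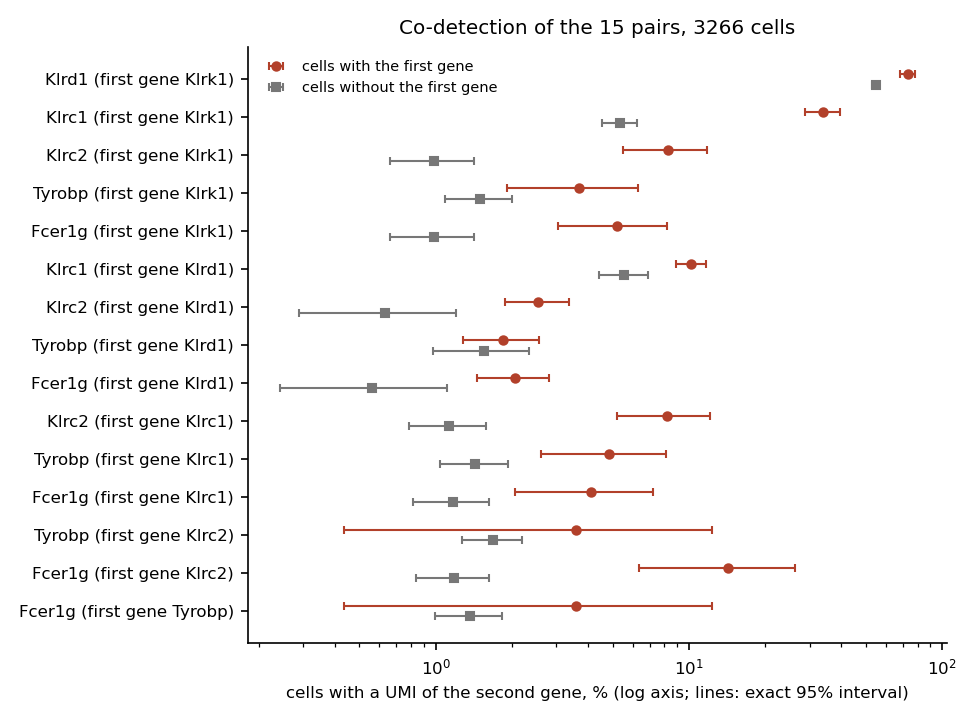
Share of cells with a UMI of the second gene among cells with (circles) and without (squares) the first gene, for all 15 pairs, on a log axis with exact 95% intervals. The shares lie apart for Klrc1 given Klrk1 and for Fcer1g given Klrc2, and overlap for the pairs of Tyrobp with Klrk1, Klrd1, Klrc2 and Fcer1g.

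Other genes of the positive cells were described next. In Fcer1g cells Klra7 was detected in 43.5%, against 7.52% of cells without Fcer1g, which mirrors the grouping above. The Helios gene Ikzf2 was detected in 26.1% of Fcer1g cells, against 4.63%, and the cytotoxic-cell chemokine Ccl5 in 100% (46 of 46), against 81.7%. Cd8b1 was lower, at 879 CPM in Fcer1g cells and 1405 CPM in the others, a log2 ratio of -0.68 (-0.88 to -0.48), and Cd3e was alike, at 935 and 912 CPM. Trgv2 was at 104 CPM in Fcer1g cells, against 7.75 CPM, and was detected in 19.6% of them, against 2.20%. An assembled T cell receptor beta chain was nonetheless found in 89.1% of Fcer1g cells, against 88.9% of the others. Lyz2 had 3 UMIs in Fcer1g cells, in 4.35% of them, against 0.652% of the others; its part was not tested.

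Tyrobp cells were compared in the same way. The T cell costimulator gene Cd7 was at 338 CPM in Tyrobp cells and 158 CPM in the others, a log2 ratio of 1.10 (0.77 to 1.41). Cd74, a gene of antigen-presenting cells, was at 51.7 CPM in Tyrobp cells and 23.5 CPM in the others, a log2 ratio of 1.14 (0.21 to 1.93) from 13 UMIs in Tyrobp cells. Cd40lg was at 23.9 CPM in Tyrobp cells, beside 7.90 CPM in all cells, and the part of such markers was not tested. Gzmb had 0 UMIs in the 56 Tyrobp cells, against 18.8 CPM in the others. The interval of its share there, 0 to 6.38%, took in the 2.59% of the others, so no difference in share was detectable. In Klrk1 cells Gzmb was at 107 CPM, against 8.56 CPM in the others, and in Klrc1 cells at 120 CPM, against 8.53 CPM. Ccl5 was at 6844 CPM in Klrk1 cells and 2261 CPM in the others. In the 80 cells with Trgv2, Klrk1 was at 185 CPM, against 33.2 CPM in the others, and Fcer1g at 34.9 CPM, against 3.74 CPM; of the 6 genes the interval of Tyrobp alone spanned 0.

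The genes most like each member, by phi of detection over 3090 thinned cells and 6101 genes, were few. For Klrk1 they were Lgals3 (phi 0.25), detected in 18.3% of Klrk1 cells and 1.36% of the others, S100a4 (0.25) and Klrc1 (0.20). For Klrc1 they were Klrk1 (0.20), Lgals3 (0.15) and Id2 (0.13). For the other 4 no phi exceeded 0.13, over 11 to 19 positive cells for the 3 sparse genes, and at these counts it is no finding.

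Lists of related genes were described with the members, Itgae and Klra7 left aside. Over all 8913 genes, 3.23% were called higher and 0.539% lower in Itgae cells against neither. Over all 8812 genes, 0.318% were called higher and 2% lower in Klra7 cells against neither. Of 8 measured NKG2D pathway genes, 0 were called in Itgae cells against neither, with a median log2 ratio of 0.23 beside 0.21 over all genes, and 0 in Klra7 cells against neither, with a median of 0.03 beside -0.03. Hcst itself was at 750 CPM in Itgae cells, 929 CPM in Klra7 cells and 820 CPM in cells with neither. The guanine nucleotide exchange factor gene Sos1 was the highest, at 15.2 CPM in Itgae cells and 7.80 CPM in cells with neither. Of 10 genes of ITAM adaptors and their kinases, 0 were called in either comparison; the adaptor gene Lcp2 was at 171 CPM in Itgae cells and 97.3 CPM in cells with neither, and the kinase gene Zap70 at 203 CPM in Klra7 cells and 158 CPM in cells with neither. Of 9 phosphatase and negative regulator genes, 0 were called in either. Ptpn6, which encodes the phosphatase SHP-1 used by inhibitory NK receptors, was at 202 CPM in Itgae cells and 239 CPM in cells with neither, and Inpp5d, which encodes SHIP1, at 82.3 CPM in Itgae cells and 54.5 CPM in cells with neither.

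Ligand genes and other NK receptor genes varied more. The ligand list had 5 measured genes, H2-T23 and Ulbp1 and the MHC class I chain genes H2-K1, H2-D1 and B2m. All 5 lay above 0 in Itgae cells and all 5 below 0 in Klra7 cells, with 0 called in either. The share of all genes above or below 0 was not counted, so these signs are a description only. Ulbp1 had 11 UMIs in Itgae cells and 3 in Klra7 cells, and both of its intervals span 0. The median log2 ratio of the 5 genes was 0.52 in Itgae cells against neither, beside 0.21 over all genes, and B2m, at 0.25, lay near the latter. In Klra7 cells against neither the median of the 5 genes was -0.19, beside -0.03. H2-T23, the gene of the CD94/NKG2A ligand Qa-1, was at 186 CPM in Itgae cells and 132 CPM in cells with neither, a log2 ratio of 0.49 (0.30 to 0.68), and at 104 CPM in Klra7 cells, a log2 ratio of -0.34 (-0.61 to -0.09). Of 8 other NK receptor genes, 1 was called higher in Itgae cells, Cd226, which encodes the activating receptor DNAM-1, at 125 CPM in Itgae cells and 51.8 CPM in cells with neither. In Klra7 cells 1 was called higher, Klre1, at 69.3 CPM in Klra7 cells and 15.1 CPM in cells with neither. In the same cells 1 was called lower, Slamf6, at 23.1 CPM in Klra7 cells and 47.9 CPM in cells with neither. Over all genes 3.23% were called higher and 0.539% lower in Itgae cells, and 0.318% and 2% in Klra7 cells. Of 4 measured Ly49 genes, 2 were called higher in Klra7 cells, beside 0.318% of all 8812 genes. Klra1 was at 37.0 CPM against 3.60 CPM in cells with neither, and Klra6 at 60.9 CPM against 11.3 CPM. Klra1, with 48 UMIs in Klra7 cells and 42 in cells with neither, reached the 50-UMI minimum only with its UMIs in Klra7 cells. These calls are a description only, and how reads common to Ly49 genes were counted is not stated. Among 12 innate-like memory genes, Ikzf2 was called higher in Itgae cells, at 64.6 CPM against 9.35 CPM in cells with neither, and in Klra7 cells, at 23.1 CPM. Eomes, a T-box factor of circulating memory cells, was called lower in Itgae cells, at 42.8 CPM against 88.1 CPM in cells with neither. The calls in the NK receptor and innate-like lists stand beside the same shares over all genes and are also a description only.

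Cells could also be grouped by clone, a clone being cells with identical T cell receptor beta and alpha junction sequences. In the lymph node, 28 cells belonged to clones also found in skin and 2107 to clones found only in the lymph node. Klrk1 was at 548 CPM (386 to 755) in shared-clone cells and 29.2 CPM (25.9 to 32.8) in lymph-node-only cells, in 18 of 28 cells and 170 of 2107 cells. Klrc1 was at 341 CPM (216 to 511) in shared-clone cells and 22.1 CPM (19.2 to 25.3) in lymph-node-only cells. Klrd1 was at 489 CPM (336 to 686) in shared-clone cells and 232 CPM (223 to 242) in lymph-node-only cells. Of the 3 members with at least 50 UMIs, 3 were called higher and 0 lower, and 22.8% of 8398 genes were called higher and 23.5% lower; the shared side held 67509 UMIs in all. No shared-clone cell had a barcode that recurred in the skin table, and without the 4 lymph-node-only cells that did, the log2 ratio was 4.23 for Klrk1 and 3.94 for Klrc1. The adaptors were at the floor: Tyrobp had 0 UMIs and Fcer1g 1 UMI in shared-clone cells, where 3 UMIs would be 44.4 CPM, and the 3 UMIs of Klrc2 came from 1 cell.

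Membership of cluster 6 and sharing with skin overlapped: 24 of the 28 shared-clone cells lay in it. Inside cluster 6, Klrk1 was at 585 CPM (410 to 811) in shared-clone cells and 292 CPM (220 to 379) in 51 lymph-node-only cells, and the intervals do not overlap. Klrc1 was at 342 CPM (211 to 522) in shared-clone cells and 120 CPM (76.0 to 180) in lymph-node-only cells there, also apart. The shares of cells with a UMI were not apart for either gene. Klrk1 was detected in 70.8% (48.9 to 87.4) of shared-clone cells there, against 52.9% (38.5 to 67.1) of lymph-node-only cells. For Klrc1 these shares were 54.2% (32.8 to 74.4) and 25.5% (14.3 to 39.6). Klrd1 was at 504 CPM (343 to 716) in shared-clone cells and 297 CPM (225 to 385) in lymph-node-only cells there, with overlapping intervals. Lymph-node-only cells outside cluster 6 had 23.8 CPM of Klrk1 and 20.1 CPM of Klrc1. Among cells with an Itgae UMI, whatever their cluster or Klra7, Klrk1 was at 627 CPM (423 to 896) in 18 shared-clone cells and 65.7 CPM (49.5 to 85.5) in 196 lymph-node-only cells. Klrc1 was at 335 CPM (191 to 543) in shared-clone Itgae cells and 29.9 CPM (19.3 to 44.1) in lymph-node-only Itgae cells.

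Within the lymph node, 49 clones had at least 2 cells in the gene table, with 99 cells in all. When a cell had Klrc1, 4 of 10 of its clone mates had it too, against 6 of 92 mates of cells without it. For Klrk1 the counts were 2 of 12, against 10 of 90, and for Klrd1 28 of 49, against 21 of 53. Each pair of mates was counted from both sides, so these counts are not independent. By clone, Klrc1 was seen in 8 of the 49, and in at least 2 cells in 2 of these. For Klrk1 the numbers of clones were 11 and 1, and for Klrd1 34 and 14. The clones in which both cells had Klrc1 or both had Klrk1 are shown by their junction sequences (5′ to 3′, from the deposited receptor table; beta chain locus on chromosome 6 and alpha chain locus on chromosome 14), with no part in capitals. Both Klrc1 clones also had Klrd1 in both cells and were seen in 0 skin cells, and the Klrk1 clone was also seen in 4 skin cells.
Klrc1 clone A, beta: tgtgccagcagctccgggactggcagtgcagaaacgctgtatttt
Klrc1 clone A, alpha: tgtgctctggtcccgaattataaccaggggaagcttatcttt
Klrc1 clone B, beta: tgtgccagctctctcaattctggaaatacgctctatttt
Klrc1 clone B, alpha: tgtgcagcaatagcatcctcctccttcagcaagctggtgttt
Klrk1 clone, beta: tgtggtgttgggacaacagaagtcttcttt
Klrk1 clone, alpha: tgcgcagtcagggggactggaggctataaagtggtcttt
The 3 clones differ from each other in both chains. Cells of expanded clones (2 or more lymph node cells) had 77.2 CPM (48.9 to 116) of Klrk1, against 31.4 CPM (27.9 to 35.2) in clones of 1 cell, and 50.3 CPM (28.2 to 83.0) of Klrc1, against 23.5 CPM (20.5 to 26.8). The shares of positive cells overlapped for both genes. Klrk1 was detected in 13.9% (7.99 to 21.9) of expanded-clone cells, against 8.53% (7.35 to 9.84) of clones of 1 cell. For Klrc1 these shares were 11.1% (5.87 to 18.6) and 7.35% (6.25 to 8.57). Klrd1 was at 245 CPM in expanded clones and 234 CPM in clones of 1 cell, a log2 ratio of 0.07 (-0.29 to 0.40).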

How the data were processed

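The authors deposited a table of lymph node counts (whole UMI counts per gene and cell, not normalized) and receptor contig tables for lymph node and skin. Bowtie, RSEM and build mm10 are named in the submitters' processing notes, without roles; filters on cells and genes, and doublet removal, are not given in the sources used here, and no doublet caller was run. Every gene in the table is seen in at least 14 cells. The 4 lanes are 1 library, so no test across samples was made. Counts were summed over cells and given as CPM with exact Poisson intervals, shares with Clopper-Pearson intervals, and ratios with exact conditional binomial intervals, all at the 95% level. Cells were thinned to 1500 UMIs for depth, which left out 176 cells. Clusters came from 2000 variable genes, 30 components, 15 neighbours and Leiden resolution 1.0, without the 6 genes, Itgae, Klra7 and 61 receptor segments. Python 3.11.15, numpy 2.4.6, pandas 2.3.3, scipy 1.17.1, scanpy 1.11.5, igraph 0.11.9 and matplotlib 3.10.9 were used. Only the log2 ratios and their intervals were tested on simulated data. These were independent Poisson counts, the model the intervals assume, so the test says nothing on further spread between cells.

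Genes named were the 6 members, Itgae, Klra7 and Hcst; for each list, from among the 2 highest and 2 lowest log2 ratios per comparison; the 3 genes most alike in detection; and genes of the sort. Marker genes of other cell types and the further genes of positive cells were chosen apart from that rule. The members and lists were chosen with earlier results of these data known. Alternatives were the definition of groups and clones, scaling, prior, depth, cluster resolution and the removal of doubtful cells.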

Additional observations from a re-analysis of the deposited data

How the results depend on the processing

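Over all settings, 12 recomputed log2 ratios changed sign. In 9 of them the interval of the reported value spans 0, and 5 of these came with neither cluster 6 nor a single top cell removed: Klrd1 in Itgae cells against neither (-0.02 without Trgv2 cells, -0.12 with median-of-ratios scaling), Klrc2 in the same comparison (-0.67 after thinning), and Tyrobp in Klra7 cells against neither (-0.37 without Trgv2 cells) and in Itgae against Klra7 cells (-0.01 where a group needed 2 UMIs). The 3 whose interval leaves out 0 changed sign without cluster 6, a setting chosen after seeing the data, as was leaving out the cell with most UMIs of a gene: the log2 ratio was then -0.69 for Klrc1 in Itgae cells against neither, and -0.88 for Klrk1 and -1.54 for Klrc1 in Itgae against Klra7 cells. The number of members called higher in Itgae cells against neither, 2, became 1 without Trgv2 cells, 1 after thinning and 0 without cluster 6. In Klra7 cells against neither, the 3 called higher became 5 where a group needed 2 UMIs, and the 0 called lower became 1 after thinning (Tyrobp, with 0 UMIs left in Klra7 cells). The Klrk1 call of that comparison was lost with a prior of 10 CPM, at a log2 ratio of 0.82. It was also lost without the Klra7 cell that held the most Klrk1 UMIs, at 0.92. In Itgae against Klra7 cells, the 1 called higher became 0 with cells of both kinds kept, with 2 UMIs needed, with productive TRB only, without barcodes with 2 or more TRB, without Trgv2 cells, without cluster 6, with median-of-ratios scaling, with a prior of 10 CPM and after thinning. It became 2 with the mean of per-cell CPM, and the 0 called lower became 1 without cluster 6. Apart from the cell sets removed, the causes were not tested. At resolution 0.5 the highest share of Klrk1 cells in any cluster was 20.8%, and at 1.5 it was 60.3%.

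No paired analysis was possible because the 4 lanes are 1 library that the authors pooled in 1 table, and no replicate was left out for the same reason. Depth limits Klrc2, Tyrobp and Fcer1g most, with 69, 67 and 66 UMIs in all cells.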

Other observations

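Klra7 cells differed among themselves as well. Fcer1g, the gamma chain gene, had 20 of its 29 UMIs of Klra7 cells in cluster 0, which held 93 of the 250 cells. In the 37 Klra7 cells of cluster 4, Klrk1 and Klrc1 had 0 UMIs, each with an upper limit of 19.1 CPM, while the CD94 gene Klrd1 was at 223 CPM (162 to 301). In the 48 Klra7 cells of cluster 3, Klrk1 was at 56.5 CPM (32.3 to 91.7) and Klrc1 at 52.9 CPM (29.6 to 87.3). Among the 134 Itgae cells of cluster 5, Klrd1 was at 132 CPM (102 to 167), against 169 CPM (143 to 197) in cells of that cluster with neither gene, and the intervals overlap.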
